A study of Mus musculus with 10 samples.

Results

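Short stretches of raised tumour-to-normal DNA ratio were examined over 6 gene regions of the mouse genome, Canx, Serinc3, Rbm39, Smap2, Gnai3 and Cd2. The regions were chosen by the measured log2 ratios of these arrays, in mm9 coordinates, because the probes between their ends read higher than the DNA beside them, so the excess of body over flank is a description of how they were chosen and was not tested. They held 40 probes, with 116 more in the 50 kb on either side, of 382487 autosomal probes on the array. They were set beside 64057 windows of 30 kb that covered the autosomes and had at least 3 probes inside and 6 in their flanks. The gene names came with the choice of regions, and no mm9 gene annotation was used here to check them.

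The arrays compared the DNA of BCR-ABL1 leukemias with non-leukemic DNA in 2 colours, on 10 arrays. The tumours were 5 Ikzf1+/- leukemias, set against 5 Ikzf1+/+ leukemias, and every tumour of both genotypes belonged to the BCR-ABL1 model, in which a fusion tyrosine kinase drives the disease. Leukemic DNA came from GFP-positive bone marrow cells and carried Cy5 on every array. Stage-matched non-leukemic bone marrow DNA, named as that of B220-positive B cells in the series design, carried Cy3 on every array, and no dye swap balanced a dye effect. The labels gave no age, strain or treatment, did not say how the Ikzf1 allele was altered, and did not say whether the tumours of a genotype came from separate mice, and p-values therefore reflect only the sample-to-sample spread, which may be technical. Genotypes were taken from the labels, and the Ikzf1 locus itself was not examined here.

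In comparative genomic hybridisation of this kind, the ratio of tumour to normal fluorescence at a probe follows the number of DNA copies there, and a true gain raises neighbouring probes together. Transcription of a gene does not in itself add DNA copies. Ikzf1 encodes Ikaros, a zinc finger transcription factor of lymphocyte development that is often altered in BCR-ABL1 acute lymphoblastic leukemia. The 6 genes have unlike functions: Canx encodes calnexin, a lectin chaperone of the endoplasmic reticulum, Serinc3 a multipass membrane protein, Rbm39 an RNA-binding protein of splicing, Smap2 a GTPase-activating protein for Arf, Gnai3 an alpha subunit of inhibitory G proteins, and Cd2 a lymphocyte adhesion receptor.

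The genes lay on 4 chromosomes. In the protein-coding gene table of GRCm38, a later build, Canx stood between Maml1 and Cby3 on chromosome 11. On chromosome 2, Serinc3 stood between Ttpal and Pkig and Rbm39 between Romo1 and Phf20. Smap2 on chromosome 4 had Zfp69 and Col9a2 as neighbours. On chromosome 3, Gnai3 had Gnat2 and Gpr61, and Cd2 had Gm52612 and Igsf3.

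RefSeq promoter sequences of GRCm38.p6, each 250 bases before and 50 after a gene's start, were matched for 4 of the 6 genes (Canx, Gnai3, Serinc3 and Rbm39, the last with 2 promoters). Those of Canx and Serinc3, the regions with the highest mean values in Ikzf1+/+ tumours, are shown 5′ to 3′ on the minus strand, which both genes use, with any match to the Ikaros core motif TGGGAA or its reverse complement TTCCCA in capitals. The Canx promoter spans chr11:50325624-50325923 and the Serinc3 promoter chr2:163645094-163645393, both in GRCm38 and not convertible here to the mm9 coordinates of the probes.
Canx: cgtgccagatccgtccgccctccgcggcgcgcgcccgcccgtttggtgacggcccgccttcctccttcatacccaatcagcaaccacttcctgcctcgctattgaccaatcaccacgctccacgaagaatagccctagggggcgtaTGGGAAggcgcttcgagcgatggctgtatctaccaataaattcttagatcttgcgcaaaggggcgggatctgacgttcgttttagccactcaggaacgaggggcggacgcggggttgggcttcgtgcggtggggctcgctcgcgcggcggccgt
Serinc3: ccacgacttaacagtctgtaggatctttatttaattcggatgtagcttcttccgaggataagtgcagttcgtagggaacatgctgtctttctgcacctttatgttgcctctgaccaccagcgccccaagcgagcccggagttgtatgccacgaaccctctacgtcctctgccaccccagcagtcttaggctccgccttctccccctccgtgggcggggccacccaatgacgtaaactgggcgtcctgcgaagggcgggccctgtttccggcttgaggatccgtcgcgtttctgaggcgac
The motif was found once in the Canx promoter, starting at base 147 of the printed strand, and in 1 of the 5 promoters of the 4 genes. It was present in 25.6% of all 32851 promoters of the same length. The GC content was 63.0% for Canx and 57.7% for Serinc3, 59.3% for Gnai3 and 67.3% and 60.7% for the 2 Rbm39 promoters, against a median of 52.7% over all promoters. CG dinucleotides numbered 35 in the Canx promoter, 21 in those of Serinc3 and Gnai3, and 33 and 25 in the 2 of Rbm39, against a median of 7. Of all promoters, 6.95% held as many as Canx, 24.8% as many as Serinc3 and Gnai3, and 8.56% and 18.4% as many as the 2 of Rbm39.

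Within each region, the mean log2 ratio of the probes inside (the body) minus the mean of those in the 50 kb on both sides (the flanks) was taken per array, after each array had been centred on its autosomal median. The excess was seen in Ikzf1+/+ tumours, and in Ikzf1+/- tumours the 6 regions lay near 0. The mean of the 6 regions was 0.01, 0.06, 0.01, 0.05 and 0.01 in Ikzf1+/- tumours 1 to 5, against 0.87, 0.37, 0.15, 0.50 and 0.32 in Ikzf1+/+ tumours 1 to 5. The median of all 64057 windows lay within 0.001 of 0 on every array.

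**Figure D1:**
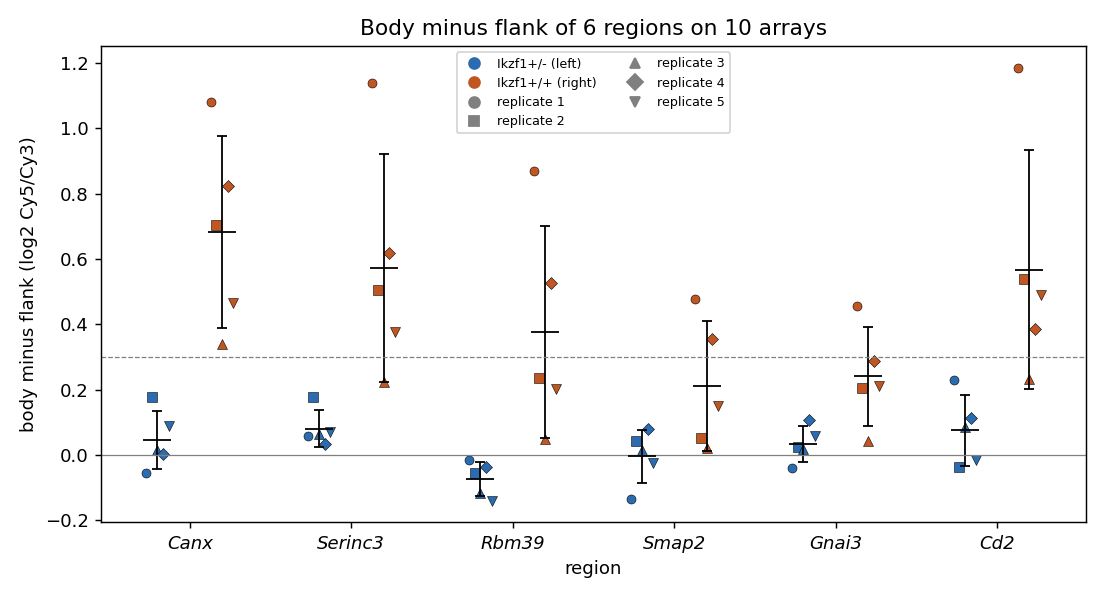
Body minus flank (log2 of Cy5 over Cy3) of each of the 6 regions on 10 arrays, with 5 Ikzf1+/- tumours on the left and 5 Ikzf1+/+ tumours on the right of each pair; marker shapes are replicate numbers, horizontal bars are means and error bars SDs, and the dashed line marks 0.3. All 30 Ikzf1+/- values lie below the dashed line and 18 of 30 Ikzf1+/+ values lie above it.

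Canx, on chr11:50107000-50139000 of mm9, gave the largest excess. Its body minus flank was -0.06, 0.18, 0.02, 0.00 and 0.09 in Ikzf1+/- tumours, against 1.08, 0.70, 0.34, 0.82 and 0.47 in Ikzf1+/+ tumours. The groups did not overlap, and the lowest Ikzf1+/+ value, that of tumour 3, was higher than the highest Ikzf1+/- value. Canx averaged 0.05 ± 0.09 in the 5 Ikzf1+/- tumours and 0.68 ± 0.29 in the 5 Ikzf1+/+ tumours (mean ± SD). The difference was -0.64 (SE 0.10), and its limma p of 1.361e-05 became an adjusted p of 0.0872 over all windows. It missed the threshold of 0.05, and passed it only when Ikzf1+/+ tumour 3 was left out among the 10 fits without an array (-0.72, limma adjusted p = 0.0210).

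Serinc3 (chr2:163449000-163471000) read 0.06, 0.18, 0.06, 0.03 and 0.07 in Ikzf1+/- tumours, against 1.14, 0.50, 0.22, 0.62 and 0.38 in Ikzf1+/+ tumours. These groups did not overlap either, with a narrow gap between Ikzf1+/- tumour 2 and Ikzf1+/+ tumour 3. Serinc3 averaged 0.08 ± 0.06 in Ikzf1+/- and 0.57 ± 0.35 in Ikzf1+/+ arrays (± SD over 5 arrays), with a difference of -0.49 (SE 0.12, limma adjusted p = 0.263). Cd2 (chr3:101079000-101092000), at 13 kb the shortest region, read 0.23, -0.04, 0.09, 0.11 and -0.01 in Ikzf1+/- tumours, against 1.19, 0.54, 0.23, 0.39 and 0.49 in Ikzf1+/+ tumours. Its groups were separated only in the third decimal, with 0.231 in Ikzf1+/- tumour 1 and 0.233 in Ikzf1+/+ tumour 3. Cd2 averaged 0.08 ± 0.11 in Ikzf1+/- and 0.57 ± 0.37 in Ikzf1+/+ arrays, with a difference of -0.49 (SE 0.13, limma adjusted p = 0.312).

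Rbm39 (chr2:155973000-156006000) had -0.02, -0.06, -0.12, -0.04 and -0.14 in Ikzf1+/- tumours, against 0.87, 0.23, 0.05, 0.53 and 0.20 in Ikzf1+/+ tumours. The 5 Ikzf1+/- values were below 0 and the 5 Ikzf1+/+ values above it. Rbm39 averaged -0.07 ± 0.05 in Ikzf1+/- and 0.38 ± 0.33 in Ikzf1+/+ arrays, with a difference of -0.45 (SE 0.11, limma adjusted p = 0.294).

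The longer regions had smaller means and their groups overlapped. Smap2 (chr4:120640000-120690000, 50 kb) read -0.13, 0.04, 0.02, 0.08 and -0.03 in Ikzf1+/- tumours, against 0.48, 0.05, 0.02, 0.35 and 0.15 in Ikzf1+/+ tumours. Ikzf1+/+ tumours 2 and 3 lay within the Ikzf1+/- range. Smap2 averaged -0.00 ± 0.08 in Ikzf1+/- and 0.21 ± 0.20 in Ikzf1+/+ arrays, with a difference of -0.22 (SE 0.08, limma adjusted p = 0.530). Gnai3 (chr3:107910000-107949000, 39 kb) read -0.04, 0.03, 0.02, 0.11 and 0.06 in Ikzf1+/- tumours, against 0.46, 0.20, 0.04, 0.29 and 0.21 in Ikzf1+/+ tumours. Ikzf1+/+ tumour 3 lay within the Ikzf1+/- range. Gnai3 averaged 0.03 ± 0.05 in Ikzf1+/- and 0.24 ± 0.15 in Ikzf1+/+ arrays, with a difference of -0.21 (SE 0.07, limma adjusted p = 0.453).

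With Benjamini-Hochberg adjustment over all windows and regions, 0 of the 6 regions passed an adjusted p of 0.05 in limma, and 0.00781% of the windows did (5 of 64057, of which the 3 lower in Ikzf1+/- made 0.00468%). At an unadjusted p under 0.05, 6 of 6 regions were lower in Ikzf1+/-, against 4.06% of the windows. Every Ikzf1+/- array was below every Ikzf1+/+ array in 4 of 6 regions (Canx, Serinc3, Rbm39 and Cd2) and in 0.824% of the windows. The median difference of the 6 regions was -0.47, and that of all windows 0.00052. Since the regions were picked for raised values that were present in the Ikzf1+/+ tumours, their direction is not independent evidence. A different background correction of the raw spot signals (normexp) gave Canx -0.70 (limma adjusted p = 0.00460) and Serinc3 -0.58 (limma adjusted p = 0.0252), while 111 windows and regions were then lower and 140 higher.

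Counted against a threshold of 0.3, 0 of 30 pairs of region and array were past it in Ikzf1+/- tumours and 18 of 30 in Ikzf1+/+ tumours, while 0.499% of window values were past it on Ikzf1+/- arrays and 1.05% on Ikzf1+/+ arrays. Canx was past it in 5 Ikzf1+/+ tumours, Serinc3 and Cd2 in 4, Rbm39 and Smap2 in 2 and Gnai3 in 1. By array, 6, 3, 1, 5 and 3 regions were past it in Ikzf1+/+ tumours 1 to 5. The Ikzf1+/+ tumours kept nearly the same order from region to region: tumour 1 was highest and tumour 3 lowest in 6 of 6 regions. Tumour 4 was the second highest in all but Cd2, in which tumour 2 took that place.

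The regions had been described as short gains over genes, and the raised ratio did not run along their whole length. Of the 40 body probes, all detected above background on every array, 0 had a mean of at least 0.5 in Ikzf1+/- and 14 in Ikzf1+/+ tumours, against 0.147% and 0.297% of all autosomal probes. At the same time 19 of the 40 had an Ikzf1+/+ mean within 0.2 of 0. Each of the 6 regions held both raised and level probes. In Canx, Serinc3, Smap2 and Gnai3, level probes (Ikzf1+/+ mean within 0.2 of 0) lay between raised ones (at least 0.5). In Rbm39 and Cd2 the highest probes lay together toward the far end.

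**Figure D2:**
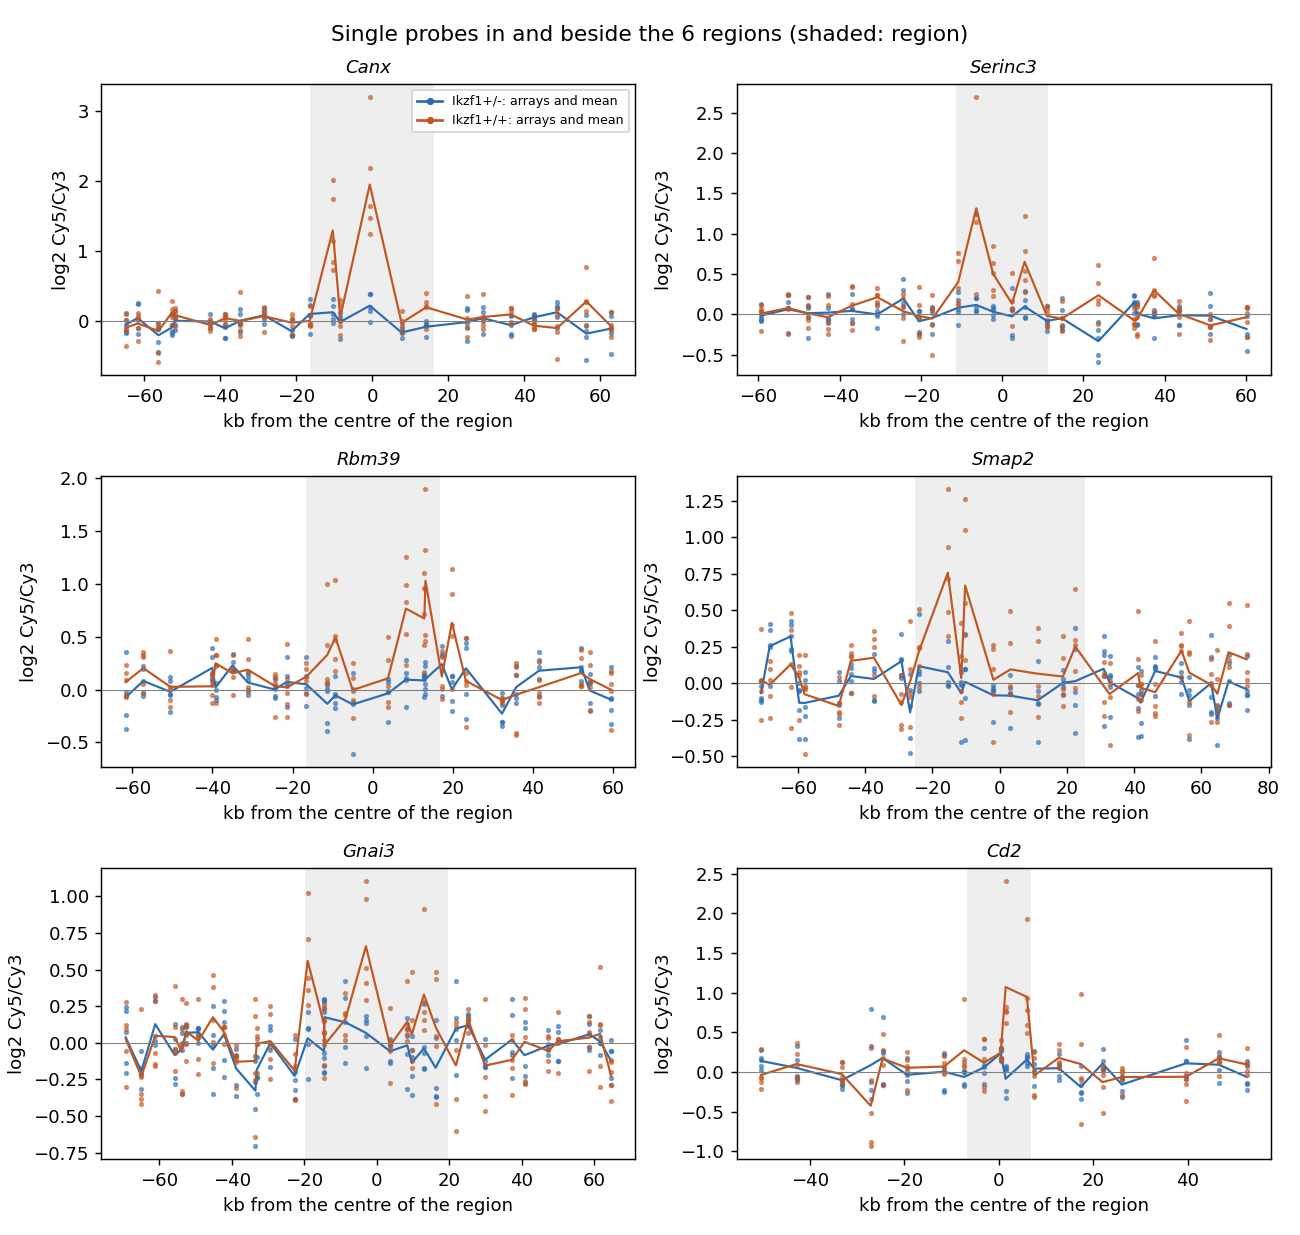
Log2 ratio of Cy5 over Cy3 of each probe against its distance in kb from the centre of the region, for the 6 regions (shaded) and their 50 kb flanks; points are arrays and lines join group means, Ikzf1+/- in blue and Ikzf1+/+ in orange, and the vertical scale differs between panels. In Ikzf1+/+ tumours single probes stand up to a mean of 1.95 (Canx) beside neighbours near 0, and the Ikzf1+/- lines stay close to 0.

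In Canx, 2 of the 5 body probes carried the excess. The higher was the probe at chr11:50122397-50122456, which read 0.14, 0.39, 0.20, -0.00 and 0.39 in Ikzf1+/- tumours, against 3.20, 1.64, 1.24, 2.19 and 1.47 in Ikzf1+/+ tumours. In Ikzf1+/+ tumour 1 this was a 9.18-fold ratio of tumour over normal signal at 1 probe. The second, at chr11:50112681-50112740, read 0.03, 0.31, -0.02, 0.21 and 0.11 in Ikzf1+/- tumours, against 2.02, 1.14, 0.73, 1.75 and 0.84 in Ikzf1+/+ tumours. The groups were far apart at both probes, and both passed the fit over all autosomal probes, with differences of -1.73 (limma adjusted p = 0.0118) and -1.17 (limma adjusted p = 0.0256). Canx was chosen by these same ratios, which were raised mainly in Ikzf1+/+ tumours. Both differences therefore describe the choice and are no independent evidence of a genotype difference. The probe between them, 7.64 kb into the region, had means of -0.01 in Ikzf1+/- and 0.06 in Ikzf1+/+ tumours, and the probe after them, 23.75 kb in, -0.16 and -0.02.

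The median over the body probes, which single high probes move little, gave a Canx difference of -0.20 in place of -0.64. The other regions changed less, with -0.41 for Serinc3, -0.42 for Rbm39, -0.45 for Cd2, -0.17 for Smap2 and -0.14 for Gnai3. None of these passed (limma adjusted p between 0.584 and 0.736). The SD of the log2 ratios of the body probes minus that of the flank probes, a measure added after the probe values were seen, was -0.05, 0.09, -0.01, -0.01 and 0.06 for Canx in Ikzf1+/- tumours, against 1.15, 0.46, 0.47, 0.91 and 0.48 in Ikzf1+/+ tumours. The probes of the Canx body were thus more scattered than those of its flanks on each Ikzf1+/+ array and about as scattered on the Ikzf1+/- arrays. The difference was -0.68 (SE 0.11, limma adjusted p = 0.0472), a call made as lower in 0.0328% and in either direction in 0.0718% of the windows, and it was lost with the SD of the body alone (adjusted p = 0.0662). It was also lost when any single Ikzf1+/- array or Ikzf1+/+ array 4 was left out, with differences between -0.70 and -0.62 (limma adjusted p between 0.0831 and 0.164). The measure came from the ratios that chose Canx and was prompted by its single high probes, so its difference is likewise a description. For the other regions the difference in this measure was between -0.32 (Serinc3, limma adjusted p = 0.309) and -0.05 (Gnai3, limma adjusted p = 0.892).

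In Serinc3, 3 of 5 body probes had an Ikzf1+/+ mean of at least 0.5. The highest, 4.62 kb into the region, read 0.09, 0.20, 0.05, 0.04 and 0.20 in Ikzf1+/- tumours, against 2.69, 1.25, 0.25, 1.24 and 1.14 in Ikzf1+/+ tumours. Tumour 3 of Ikzf1+/+ was barely above the Ikzf1+/- range there, and the other Ikzf1+/+ tumours were well above it. In the shorter Cd2 the probes 7.95 kb and 12.45 kb into the region averaged -0.09 and 0.16 in Ikzf1+/- tumours, against 1.07 and 0.94 in Ikzf1+/+ tumours. The other 2 Cd2 probes, 3.35 kb and 6.91 kb in, averaged 0.06 and 0.23 in Ikzf1+/- tumours, against 0.11 and 0.24 in Ikzf1+/+ tumours. The raised Cd2 probes thus lay in the second part of the region.

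In Rbm39 the probes toward the far end were the highest, with Ikzf1+/- means of 0.09, 0.09 and 0.10 and Ikzf1+/+ means of 0.77, 0.67 and 1.03 at 24.80, 29.40 and 29.68 kb. The excess did not stop at the chosen edge of Rbm39: a flank probe 3.28 kb beyond it read 0.13, 0.07, -0.11, -0.21 and 0.12 in Ikzf1+/- tumours, against 0.90, 0.50, 0.01, 1.14 and 0.61 in Ikzf1+/+ tumours. It was the only one of the 116 flank probes with an Ikzf1+/+ mean of at least 0.5. In Smap2 the raised probes lay 9.61 and 14.75 kb in, with Ikzf1+/- means of 0.07 and 0.01 and Ikzf1+/+ means of 0.76 and 0.67. The Smap2 probe between them, at 13.59 kb, averaged -0.07 in Ikzf1+/- and 0.03 in Ikzf1+/+ tumours. In Gnai3 the probes at 0.466 and 16.54 kb averaged 0.03 and 0.07 in Ikzf1+/- and 0.56 and 0.66 in Ikzf1+/+ tumours, and 7 of its 10 body probes lay within 0.2 of 0 in Ikzf1+/+ tumours.

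The first and last body probes lay 0.186 to 5.68 kb inside the chosen edges, and the nearest probes outside 0.064 to 9.13 kb beyond them. This spacing does not show how sharply the ratio changed at an edge. The first and last body probes had Ikzf1+/+ means of 1.30 and 0.20 in Canx, 0.40 and 0.65 in Serinc3 and 0.33 and 1.03 in Rbm39. They had 0.22 and 0.25 in Smap2, 0.56 and 0.11 in Gnai3 and 0.11 and 0.94 in Cd2. The nearest probes outside had Ikzf1+/+ means of 0.01 and 0.02 beside Canx, -0.05 and -0.02 beside Serinc3, 0.12 and 0.12 beside Rbm39, 0.01 and -0.02 beside Smap2, -0.19 and -0.15 beside Gnai3 and 0.27 and -0.05 beside Cd2.

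Every Ikzf1+/- array was below every Ikzf1+/+ array at 13 of the 40 body probes and at 1 of the 116 flank probes, against 1.05% of all autosomal probes. In the limma fit of single probes, 2 of 40 body probes (both in Canx) and 0 of 116 flank probes passed an adjusted p of 0.05 as lower in Ikzf1+/-, a call made for 0.0701% of all probes (268 of 382129, with 65 called higher). The count of body probes called was 0 without Ikzf1+/- array 1 or 4, 1 without Ikzf1+/- array 2, 3 or 5 or Ikzf1+/+ array 4, 4 without Ikzf1+/+ array 2 and 6 without Ikzf1+/+ array 3. With normexp correction 6 body probes passed, and over all probes 522 were then lower and 1545 higher.

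By array, 0 of 40 body probes reached 0.5 in each Ikzf1+/- tumour, and 21, 9, 5, 13 and 12 did so in Ikzf1+/+ tumours 1 to 5. Over all autosomal probes, between 0.427% and 1.35% reached it on Ikzf1+/- arrays and between 1.26% and 3.11% on Ikzf1+/+ arrays. Ikzf1+/+ tumour 3 had the highest share over the genome and the lowest among the body probes of the 5 Ikzf1+/+ tumours.

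The same probes were raised from 1 Ikzf1+/+ tumour to the next. Over the 40 body probes, the Pearson correlation between arrays had a median of 0.139 among the 10 pairs of Ikzf1+/- arrays (-0.106 to 0.503). The median was 0.813 among the 10 pairs of Ikzf1+/+ arrays (0.712 to 0.898) and 0.270 among the 25 mixed pairs (0.072 to 0.567). Over the 116 flank probes the medians were 0.248, 0.143 and 0.107. These are correlations across probes, which share regions, probe sequences and a common normal DNA type. The body probes lie in regions chosen for ratios that were raised in Ikzf1+/+ tumours. A higher correlation among Ikzf1+/+ arrays is therefore partly built in by the choice, and the values are given as a description.

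**Figure D3:**
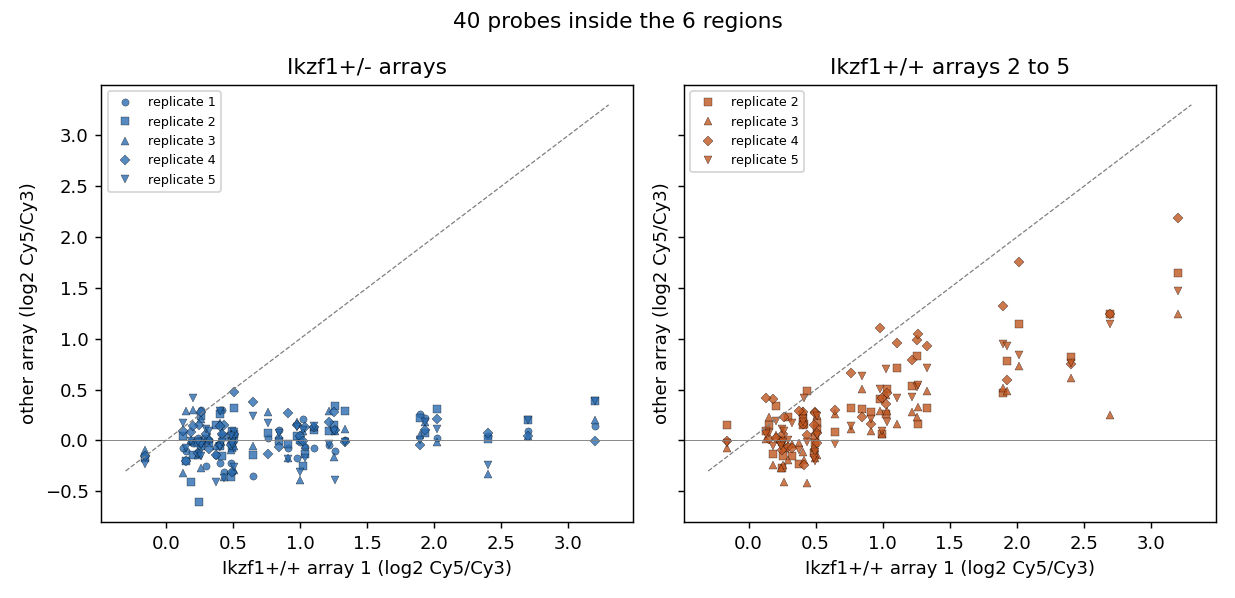
Log2 ratio of the 40 body probes on Ikzf1+/+ array 1 (horizontal axis) against the same probes on other arrays (vertical axis), with the 5 Ikzf1+/- arrays in the left panel and Ikzf1+/+ arrays 2 to 5 in the right panel; the dashed line marks equal values. The Ikzf1+/- points stay around 0 over the whole horizontal range, and the Ikzf1+/+ points climb with array 1 and lie mostly below the line.

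Each dye was then examined alone, as log2 processed signal of body minus flank, in which the fixed brightness of each probe cancels between genotypes. In Cy5, the leukemic DNA, Canx read -0.14, 0.12, -0.11, -0.19 and 0.03 in Ikzf1+/- tumours, against 1.03, 0.72, 0.24, 0.73 and 0.43 in Ikzf1+/+ tumours. The Canx difference of -0.69 (SE 0.11) passed the fit over all windows (limma adjusted p = 0.0164). This call was made as lower in 0.0749% and in either direction in 0.116% of the windows. Cy5 is the numerator of the ratio by which Canx was chosen, so nothing is read from this call about the genotypes. The call was lost when any of Ikzf1+/- tumours 1, 3 or 4 or Ikzf1+/+ tumour 4 was left out, with differences of -0.67, -0.68, -0.66 and -0.66 (limma adjusted p = 0.0584, 0.0652, 0.0644 and 0.0573).

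The Cy5 differences of the other regions were -0.61 for Serinc3 (limma adjusted p = 0.0633), -0.50 for Rbm39 (adjusted p = 0.117), -0.44 for Cd2 (adjusted p = 0.178), -0.32 for Smap2 (adjusted p = 0.161) and -0.18 for Gnai3 (adjusted p = 0.316). In Cy3, the non-leukemic DNA, they were -0.05 for Canx, -0.12 for Serinc3, -0.05 for Rbm39, -0.11 for Smap2, 0.02 for Gnai3 and 0.05 for Cd2. In Cy3, 0 of 6 passed (limma adjusted p between 0.195 and 0.926), against 0.295% of the windows in either direction and 0.184% as lower. Before adjustment, Serinc3 and Smap2 were under 0.05 in the limma fit of Cy3, and the share of windows under it was not counted. The Serinc3 Cy3 values were 0.02, 0.04, 0.05, 0.06 and 0.03 in Ikzf1+/- tumours, against 0.18, 0.15, 0.17, 0.12 and 0.16 in Ikzf1+/+ tumours. The non-leukemic channel thus read the higher values on the Ikzf1+/+ arrays in Serinc3 too. Smap2 in Cy3 averaged -0.08 on Ikzf1+/- and 0.03 on Ikzf1+/+ arrays, and Gnai3 and Cd2 had the other direction. How many windows do the same in Cy3 was not counted, so nothing is read from these values. At the highest Canx probe the Cy5 signal alone differed by -1.89 and the Cy3 signal by -0.17.

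**Figure D4:**
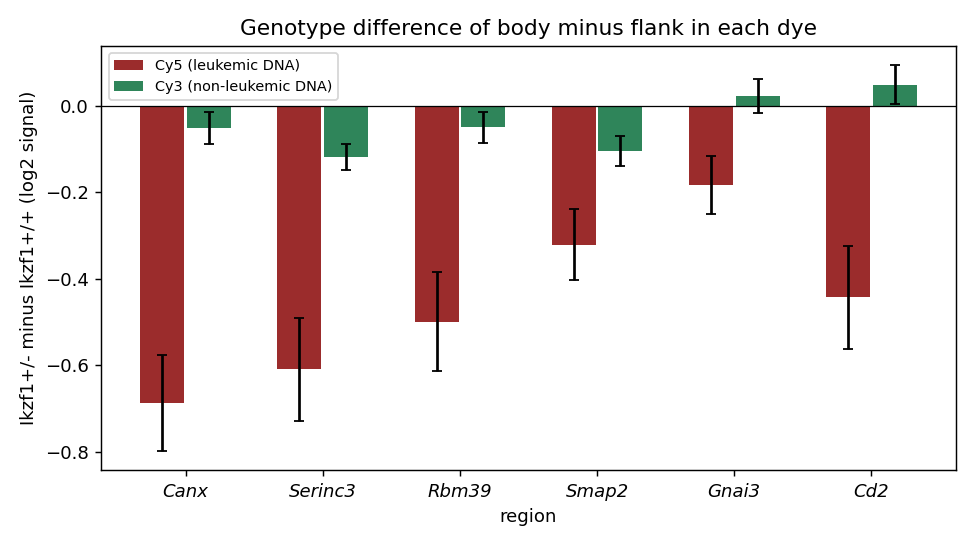
Difference Ikzf1+/- minus Ikzf1+/+ of body minus flank (log2 signal) for the 6 regions, in Cy5 (leukemic DNA, red) and Cy3 (non-leukemic DNA, green); bars are limma estimates and error bars their SEs, from 5 arrays per genotype. The Cy5 bars run from -0.69 for Canx to -0.18 for Gnai3 and the Cy3 bars from -0.12 to 0.05.

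Arrays with a dimmer leukemic channel tended to have the larger excess. The median background-subtracted Cy5 signal was 225, 217, 217, 220 and 199 on Ikzf1+/- arrays 1 to 5, against 88.4, 93.0, 159, 107 and 153 on Ikzf1+/+ arrays 1 to 5. It was lower on every Ikzf1+/+ array (two-sided exact permutation p = 0.00794, the smallest that 5 against 5 arrays allow). The Cy3 signal of the non-leukemic DNA went the other way, with 159.7 ± 8.1 on Ikzf1+/- and 174.2 ± 5.8 on Ikzf1+/+ arrays (SD, exact permutation p = 0.0238). Among the Ikzf1+/+ arrays, array 1 had the dimmest Cy5 and the highest region mean, and array 3 the brightest Cy5 and the lowest region mean. The order was not strict: array 2 was dimmer than array 4 and had the lower region mean (0.37 against 0.50). Among the Ikzf1+/- arrays, array 5 had the dimmest Cy5 and the lowest region mean (0.0063). The noise, an SD of log2 ratios taken from differences between neighbouring probes over the genome, averaged 0.180 on Ikzf1+/- and 0.206 on Ikzf1+/+ arrays (exact permutation p = 0.0238). The part of the signal level and of the noise in these results was not tested.

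**Figure D5:**
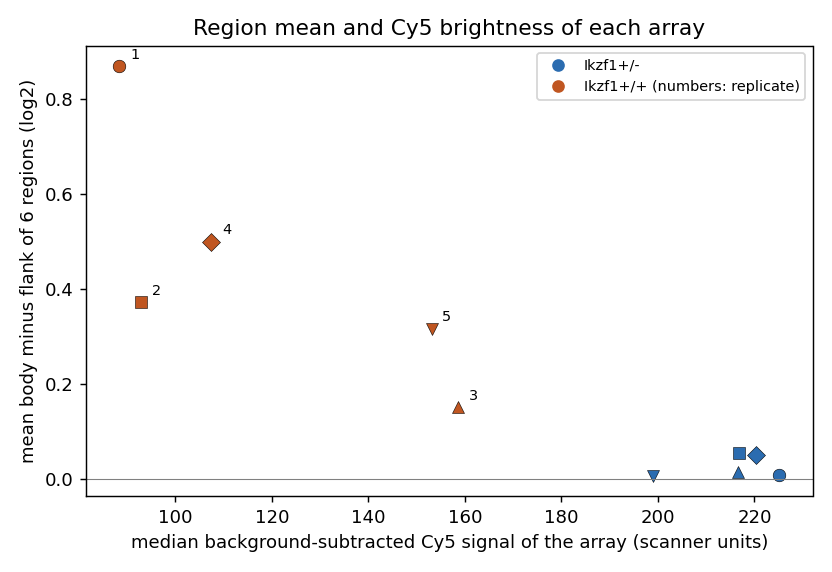
Mean body minus flank of the 6 regions (log2) against the median background-subtracted Cy5 signal of the array in scanner units, for 5 Ikzf1+/- arrays (blue) and 5 Ikzf1+/+ arrays (orange, numbered by replicate). Ikzf1+/- arrays lie at 199 to 225 with means near 0, and Ikzf1+/+ arrays at 88.4 to 159 with means between 0.15 and 0.87.

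The arrays lay in pairs on 5 slides, 1 of which held both genotypes (Ikzf1+/- tumour 1 and Ikzf1+/+ tumour 5). Each other slide held a single genotype, so slide and genotype are largely confounded. Within that slide the differences were -0.52 for Canx, -0.32 for Serinc3, -0.22 for Rbm39, -0.28 for Smap2, -0.25 for Gnai3 and -0.26 for Cd2, from 1 array of each genotype and so without a test. For Cd2, Rbm39 and Serinc3 these were smaller by more than 1.5 times than the differences over all arrays. For Smap2 and Gnai3 they were larger than those over all arrays (-0.22 and -0.21). Ikzf1+/+ tumour 1, the highest in each region, lay on another slide.

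The regions were not alone in this pattern over arrays. The 10 windows with the smallest root mean square difference from the mean profile of the 6 regions over the 10 arrays were at 0.0825 to 0.115, closer than any single region to that mean except Rbm39 (0.101). The nearest, chr13:21780001-21810000, averaged 0.06 in Ikzf1+/- and 0.52 in Ikzf1+/+ tumours. The second, chr7:52380001-52410000, averaged -0.02 in Ikzf1+/- and 0.46 in Ikzf1+/+ tumours. Its highest probe had an Ikzf1+/+ mean of 3.46 and its lowest -0.14, so its probes were not raised evenly. No gene was named in these windows, since no mm9 annotation was used here.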

How the data were processed

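Spot intensity came from the scanner files, whose processed signals are background-subtracted and dye-normalised by the scanner software, per the file headers. Positions are mm9, and the software was Agilent Feature Extraction, version 10.7.3.1 per the file headers and 10.5.1.1 per the submitters' processing notes. The series' value table holds log2 ratios deposited by the authors and served as an alternative; per array its slope against the scanner's ratio was 1.00 with column medians between -0.019 and -0.0006, so it was not centred. That scanner ratio is a log10 of Cy5 over Cy3, written by the scanner software per the file headers, and was used only for this check.

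Here log2 of Cy5 over Cy3 was computed per spot, outlier spots were left out, spots of a probe averaged and arrays centred on the autosomal median. Body minus flank was fitted with limma 3.58.1 under R 4.3.3 (lmFit, eBayes), without covariates, over all windows and regions with Benjamini-Hochberg adjustment, checked on simulated data. Single values per array were compared by exact permutation (scipy 1.17.1). The number of arrays limits the precision. Alternatives changed the background correction, normalization, probe filter, flanks, windows, thresholds, blocks and arrays left out. Normexp (offset 50) used median spot signals. The regions and lists were chosen with earlier results of these data known, and the named genes are the 6 regions' genes with the 10 nearest windows. The lists of other genes, exons and probe base composition were not analysed here, since mm9 gene positions and probe sequences were not used.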

Additional observations from a re-analysis of the deposited data

Results flagged for a closer look

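Serinc3 in Ikzf1+/- tumour 2 was 0.1786, far from the other 4 Ikzf1+/- tumours by Dixon's criterion, which chance meets in about 1 of 20 groups. Rbm39 had opposite signs in the genotypes, with every Ikzf1+/- array below 0 and every Ikzf1+/+ array above it; the difference of -0.4493 had a limma adjusted p of 0.294. Canx differed between genotypes in the Cy5 channel alone (-0.6878), in the scatter of its body probes (-0.6791) and at 2 of its probes (-1.1666 and -1.7262), each past an adjusted p of 0.05 in limma over all windows or probes. All these values come from the ratios by which the regions were chosen, which were raised in Ikzf1+/+ tumours, so their direction was fixed by that choice and they are given as a description.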

How the results depend on the processing

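The differences of the 6 regions were negative in all 23 alternatives run for each. Canx ranged from -0.72 to -0.20 over these (limma adjusted p = 0.00460 to 0.696) and passed the threshold with normexp (-0.70) and without Ikzf1+/+ tumour 3 (-0.72, adjusted p = 0.0210); Serinc3 passed with normexp (-0.58). Leaving out each array gave -0.72 to -0.54 for Canx, -0.58 to -0.35 for Serinc3, -0.53 to -0.33 for Rbm39, -0.26 to -0.15 for Smap2, -0.26 to -0.15 for Gnai3 and -0.58 to -0.34 for Cd2. The count of windows called, 5, became 0 with medians over probes, 251 with normexp, 3 with flanks of 25 kb, 2 with no flank, 8 with flanks 10 kb outside, 21 with windows of 20 kb, 0 with 60 kb, 11 with at least 5 body and 10 flank probes, and 0 to 15 with an array left out (15 without Ikzf1+/+ tumour 3, 3 without Ikzf1+/+ 2, 1 without Ikzf1+/- 1, 3 or 5 or Ikzf1+/+ 1, and 0 without Ikzf1+/- 2 or 4 or Ikzf1+/+ 4).

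In Cy5 alone Canx ranged from -0.79 to -0.59 with an array left out; Serinc3 passed with slide as a random block (-0.61, limma adjusted p = 0.0446) and without Ikzf1+/+ tumour 1, 3 or 5, with a range of -0.69 to -0.46. The Canx scatter was -0.71 with the SD of the body alone, -0.68 with the replicate block (limma adjusted p = 0.0945) and -0.74 to -0.56 with an array left out, where 6 of 10 fits lost the call. Body probes called, 2, became 6 with normexp and 0 to 6 with an array left out (0 without Ikzf1+/- tumour 1 or 4, 6 without Ikzf1+/+ tumour 3). Autosomal probes called, 333, became 2067 with normexp, 555 with detected probes, 554 with slide as a random block and 95 to 698 with an array left out. Values past the gain threshold numbered 1 in Ikzf1+/- at 0.2, with medians and with normexp, and 10 in Ikzf1+/+ at 0.5. The causes of these changes were not tested.

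Same-numbered arrays did not deviate together over the windows (correlations of -0.024 to 0.024). Window values are noisy, so this cannot settle whether the numbers pair samples. With the replicate block 5 windows and 432 probes were called. Grouping by gene name and correction for base composition were not run. Cy5 signal was brighter on every Ikzf1+/- array than on any Ikzf1+/+ array. Noise was higher, and ratios thus less precise, on the Ikzf1+/+ arrays only on average. It was 0.184 on Ikzf1+/+ array 3, against 0.186 and 0.194 on Ikzf1+/- arrays 4 and 5.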
